A study of Homo sapiens with 4 samples.

Results

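TIMP2, GIPC3, FAM101B, SBK1, SMIM24 and CA6 are 6 genes of unrelated function that were chosen by their measured ribavirin-minus-control difference, as being among the most strongly lowered transcripts of ribavirin-treated Hut78 cells. They are 6 of 25847 genes measured on the array, and a member was identified by its gene symbol. Hut78 is an established human cell line of cutaneous T-cell lymphoma, a cancer of skin-homing T cells, and ribavirin is a guanosine analogue used against viruses. Total RNA was measured on 4 Affymetrix Human Transcriptome Arrays 2.0. The control group was 2 arrays of Hut78 cells left untreated, and the ribavirin group was 2 arrays of the same line held in 50 µM ribavirin for 120 h. Both came from the same line grown in RPMI with 10% fetal bovine serum, and how long the control was kept is not stated. Because the ribavirin-minus-control difference chose the 6 genes, their levels and differences are given as a description, with no test.

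The 6 proteins act in different places. TIMP2 is a secreted inhibitor of matrix metalloproteinases, the enzymes that cut extracellular matrix, and together with the membrane enzyme MMP14 it also takes part in activating MMP2. GIPC3 is a cytoplasmic PDZ-domain adaptor whose inherited loss causes deafness. FAM101B, now named RFLNB, encodes refilin B, which binds filamins and bundles actin filaments. SBK1 encodes a serine/threonine kinase with SH3-binding sequence that was first studied in rat brain. SMIM24 encodes a small single-pass membrane protein of which little is known. CA6 is the secreted carbonic anhydrase of saliva, an enzyme that interconverts carbon dioxide and bicarbonate.

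Promoter sequence was at hand for 2 of the 6 genes, SMIM24 and CA6, from RefSeq (GRCh38.p14). Both are shown so that what lies before the start sites of 2 of the falling genes can be compared. Each runs 5′ to 3′ on the gene's strand, from 250 bases before the start site to 50 after it. The SMIM24 stretch is chr19:3480476-3480775 on the minus strand, and the CA6 stretch is chr1:8945618-8945917 on the plus strand. Capitals mark GC boxes (GGGCGG on either strand).
SMIM24: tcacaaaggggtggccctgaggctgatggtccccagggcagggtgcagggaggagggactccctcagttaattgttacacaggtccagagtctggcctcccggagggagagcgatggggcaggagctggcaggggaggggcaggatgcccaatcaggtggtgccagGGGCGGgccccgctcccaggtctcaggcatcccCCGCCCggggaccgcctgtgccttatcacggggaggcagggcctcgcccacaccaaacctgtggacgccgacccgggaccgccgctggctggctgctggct
CA6: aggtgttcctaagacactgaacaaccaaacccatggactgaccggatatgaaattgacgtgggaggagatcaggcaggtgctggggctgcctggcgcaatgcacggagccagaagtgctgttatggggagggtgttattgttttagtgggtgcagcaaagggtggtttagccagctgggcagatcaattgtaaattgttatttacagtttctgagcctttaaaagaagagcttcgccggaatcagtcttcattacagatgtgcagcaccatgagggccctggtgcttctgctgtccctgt
The SMIM24 stretch was 69.3% G or C and held 2 GC boxes, 1 on each strand, whose first bases lay 84 and 51 bases before the start site. The CA6 stretch was 50.3% G or C and held none, while the median over 35116 RefSeq promoters of this length was 58.7% G or C. A GC box was present in 45.0% of those promoters. Neither stretch held the TCF/LEF letters CTTTGA (12.9% of promoters), the E-box CACGTG (7.26%), the GAS letters TTCNNNGAA (7.66%), the core TGATGNAA (3.62%) or the GATA letters AGATAA (10.3%), each searched on both strands. A match or its absence describes these letters in this window only.

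The values are log2 probe set summaries as deposited by the authors, made with SST-RMA. How its SST step alters the scale is not stated, and fold sizes may therefore differ from ones that RMA alone would give. For the lower end of the scale, the array's 23 background probe sets, which match no transcript, were used. The highest of them reached 5.32 and 5.18 on the control arrays and 5.65 and 4.80 on the ribavirin arrays, and a value at or below that of its own array is called within the background range. A group mean was held against the mean of these ceilings in its group, 5.25 in control and 5.22 with ribavirin. The set with the lowest G and C content was itself unsteady, at 5.65 on ribavirin replicate 1 and 3.51 on ribavirin replicate 2. It was the highest set on ribavirin replicate 1 and on control replicate 1, so calls on those arrays hang on it. The median background set lay between 3.08 and 3.21. Gene medians of the arrays lay between 4.20 and 4.30, and replicate arrays correlated across genes at Pearson r = 0.998 in each group. No label says that the 2 arrays of a group came from separate cultures, so p-values reflect the spread of these samples alone, possibly a technical one, and the number of arrays limits the precision. In total RNA from a culture, fewer cells of a type and less RNA per cell cannot be told apart.

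All 6 genes were lower on both ribavirin arrays than on both control arrays, a separation that 35.8% of all 25847 genes also showed and that the choice of these genes fixes. Their log2 changes ran from -2.96 to -1.96, with a median of -2.16, against a median of -0.05 over all genes. On the ranking of all log2 changes from the lowest up, TIMP2 stood at rank 2, GIPC3 at 4, FAM101B at 8, SBK1 at 9, SMIM24 at 11 and CA6 at 12. The gene just after CA6, which is no member, had -1.83. Only 9 genes fell at least 4-fold and 164 at least 2-fold on this scale, with no test applied.

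**Figure D1:**
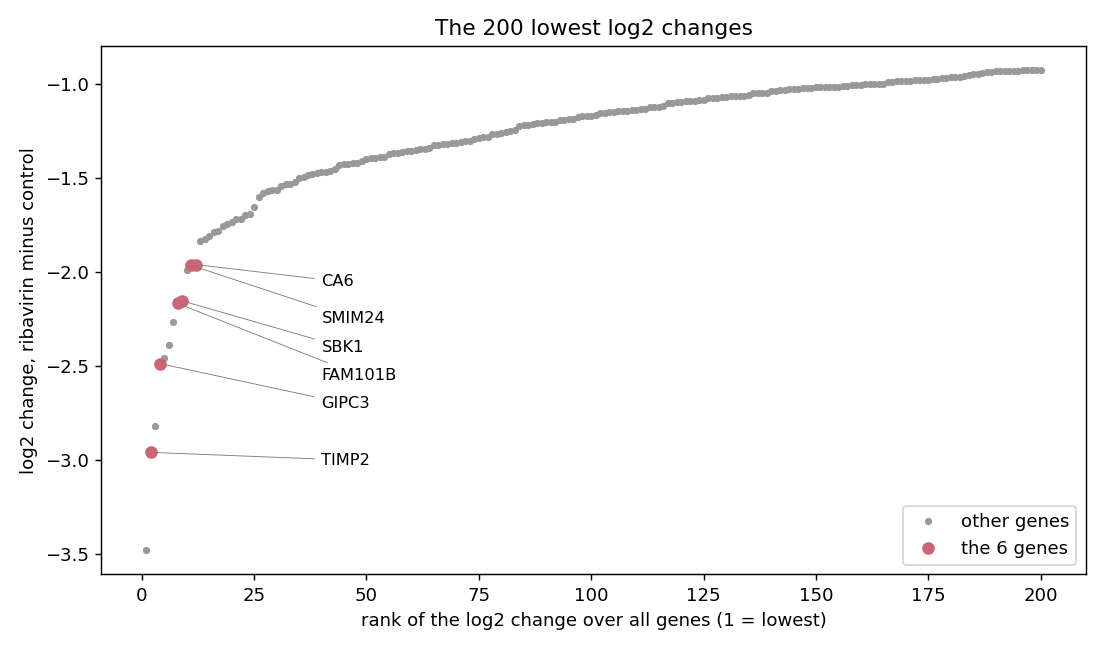
The 200 lowest log2 changes (ribavirin minus control, y axis) by rank over all genes (x axis), with the 6 genes as red points. TIMP2 at -2.96 is the lowest of the 6, and SMIM24 and CA6 nearly coincide at -1.97 and -1.96.

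TIMP2, the metalloproteinase inhibitor, stood at 7.48 and 7.22 on the control arrays and at 4.22 and 4.56 on the ribavirin arrays. The groups lay 2.66 apart at their nearest, and both ribavirin arrays were within the background range while both control arrays were above it. The means were 7.35 ± 0.18 and 4.39 ± 0.24 (SD, n = 2 each). With the ribavirin arrays set to their highest background set, TIMP2 was at least 4.36-fold lower, and the measured log2 change was -2.96. Even so, each array's TIMP2 value exceeded at least 19 of the 23 background sets. The only transcript cluster with this symbol (TC17002807.hg.1) rests on a NONCODE record, X54533, which the table classes as an mRNA-like long noncoding RNA. A cluster built on the RefSeq messenger of TIMP2 was not analysed here, so these values describe that record.

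GIPC3 (TC19000073.hg.1, RefSeq NM_133261) read 7.90 and 7.56 in control and 5.05 and 5.43 with ribavirin. Its groups were 2.13 apart. Of the ribavirin values, 5.05 was within the background range of its array (highest set 5.65) and 5.43 above that of its own (highest set 4.80). The means of 7.73 ± 0.24 and 5.24 ± 0.26 (SD, n = 2 each) gave a log2 change of -2.49, or 5.61-fold lower. Raising the 1 value in the background range to that array's highest background set made the change -2.19.

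FAM101B, the refilin gene, was above every background set on all 4 arrays, so no floor touched its fall. It stood at 10.79 and 11.02 in control and 8.90 and 8.58 with ribavirin, from 10.90 ± 0.16 to 8.74 ± 0.22 (SD, n = 2 each), which is 4.49-fold lower. This cluster (TC17002426.hg.1) rests on a NONCODE record, AK093557. The cluster of the RefSeq messenger NM_182705 (TC17000965.hg.1) had a lower mean and was therefore not the one kept. It read 10.04 and 9.86 in control and 8.0 and 7.96 with ribavirin, a log2 change of -1.97 beside -2.17 for the kept cluster. Both FAM101B clusters thus showed the fall, at 3.92-fold and 4.49-fold.

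SBK1, the kinase gene, also had 2 clusters, and here they differed in size. The kept one (TC16001471.hg.1, NONCODE record AL390134) read 8.20 and 7.75 in control and 6.03 and 5.61 with ribavirin. All 4 values were above the background range, and the means of 7.98 ± 0.32 and 5.82 ± 0.29 (SD, n = 2 each) were 4.45-fold apart. The RefSeq cluster (TC16000300.hg.1, NM_001024401) read 5.73 and 5.62 in control and 4.42 and 4.56 with ribavirin. Its ribavirin arrays were both within the background range, so it was at least 1.37-fold lower, with a measured log2 change of -1.18. That change would stand at rank 96 in place of 9. Another cluster, annotated linc-SBK1 and carrying no gene symbol, was looked up after its values were seen. It read 3.74 and 3.85 in control and 3.75 and 3.98 with ribavirin, so its groups overlapped within the background range.

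**Figure D2:**
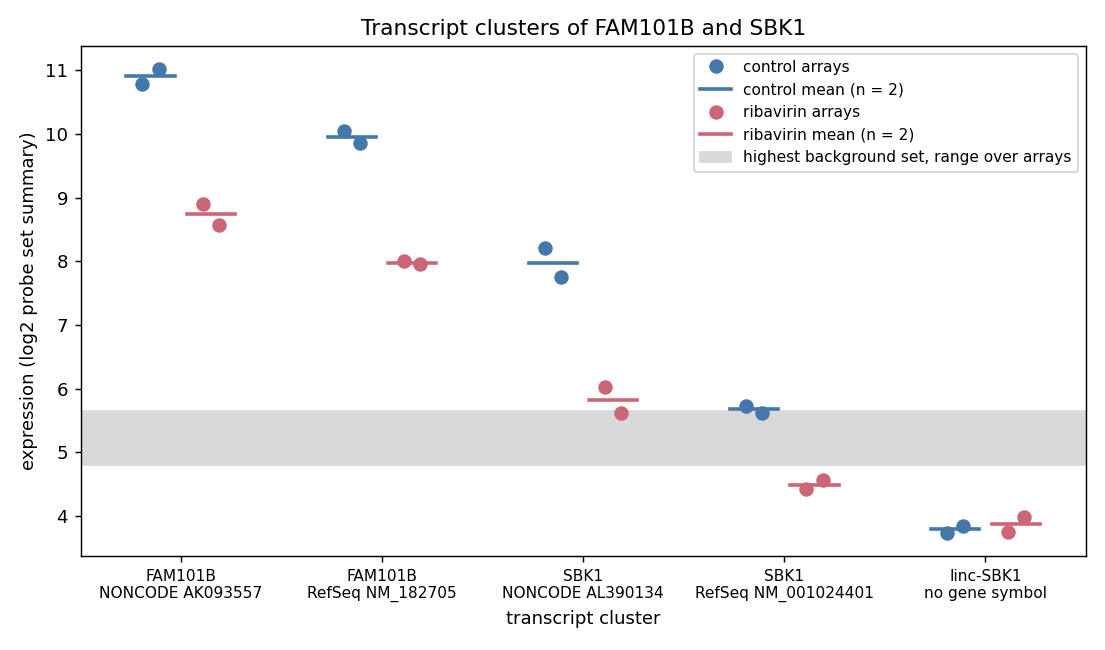
Expression (log2 probe set summary, y axis) of each transcript cluster of FAM101B and SBK1 and of linc-SBK1 (x axis), with points for arrays, bars for means of 2 and a grey band for the range of the highest background set over the 4 arrays. Both FAM101B clusters fell by about the same distance, from 10.90 to 8.74 and from 9.95 to 7.98. The RefSeq cluster of SBK1 starts near the band, at 5.68, and ends below it, at 4.49.

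SMIM24 (TC19001042.hg.1, RefSeq NM_001136503) stood at 7.10 and 6.39 in control and at 4.77 and 4.79 with ribavirin. Its control arrays were 0.71 apart, the widest gap between replicates among the 6 genes, while its ribavirin arrays differed by 0.01. The nearest control and ribavirin values were 1.60 apart, and both ribavirin values were within the background range. From 6.75 ± 0.50 to 4.78 ± 0.01 (SD, n = 2 each), SMIM24 was at least 2.87-fold lower, with a measured log2 change of -1.97. Without control replicate 1 the change was -1.61, and without control replicate 2 it was -2.32.

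CA6, the salivary carbonic anhydrase (TC01000110.hg.1, RefSeq NM_001215), read 7.26 and 7.40 in control and 5.50 and 5.23 with ribavirin. Its control arrays were only 0.13 apart. With ribavirin the higher value, 5.50, was within the background range of its array (highest set 5.65). The lower value, 5.23, was above that of its own array (highest set 4.80). The means of 7.33 ± 0.10 and 5.37 ± 0.19 (SD, n = 2 each) gave a log2 change of -1.96, or 3.89-fold lower. The median gap between replicate arrays was 0.33 over the 6 genes and 0.09 over all genes. Every one of the 6 differed between groups by more than its replicate gaps, which their choice by that difference favours.

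**Figure D3:**
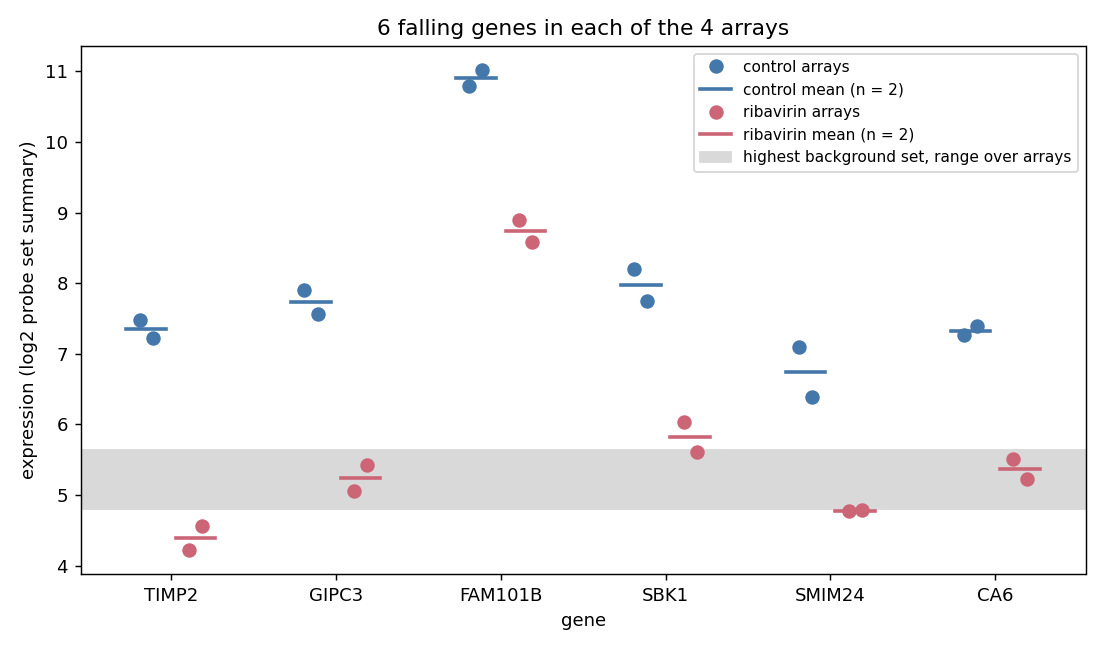
Expression (log2 probe set summary, y axis) of the 6 genes (x axis) on each of 2 control and 2 ribavirin arrays, with bars for means of 2 and a grey band for the range over arrays, 4.80 to 5.65, of the highest background set. FAM101B alone stays far above the band with ribavirin, at 8.74, and TIMP2 at 4.39 ends below it.

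For each gene, the protein-coding genes with the nearest profile were sought by Euclidean distance over the 4 arrays, after each gene's own mean was removed, among 18619 genes other than the 6. Between the 6 themselves, the closest pairs were FAM101B and CA6 (distance 0.22) and TIMP2 and GIPC3 (0.48). All points share the same 4 arrays, and the distances only describe them. The profiles were not scaled, so the size of the fall, which chose the 6 genes, largely sets these distances. The nearest genes are therefore ones that also fell far, such as SCD (log2 change -3.48), DUSP9 (-2.46), CD5 (-2.39), TCF7 (-2.27) and LGMN (-1.99). A likeness beyond the size of the fall was not tested. The T-cell surface gene CD5 was the nearest of the other genes to TIMP2 (distance 0.62) and to GIPC3 (0.29). TIMP2 was next followed by the desaturase SCD (0.63) and the phosphatase DUSP9 (0.72), and GIPC3 by the T-cell transcription factor TCF7 (0.40) and DUSP9 (0.57). LGMN, a lysosomal protease, was the nearest of them to FAM101B (0.26) and to CA6 (0.13), and TCF7 to SBK1 (0.37). After LGMN, FAM101B had DUSP9 (0.31) and TCF7 (0.33), and CA6 had the calcium sensor NCS1 (0.16). After TCF7, SBK1 had CD5 (0.39) and LGMN (0.40). SMIM24 had neighbours in profile that no other of the 6 had: the tubulin TUBB4A (0.28), the mitochondrial carrier SLC25A23 (0.35) and the granule gene NKG7 (0.36). In TUBB4A, as in SMIM24, control replicate 1 was above control replicate 2, at 11.37 and 10.89.

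Relatives and binding partners of the 6 genes were not chosen for their change. The lists were, however, drawn up with earlier results of these data known. These genes were tested with limma over all 25847 genes (adjusted p under 0.05, Benjamini-Hochberg). Of 118 such genes 10 fell and 7 rose, with a median log2 change of -0.04. Over all genes 5.88% fell and 9.34% rose, with a median of -0.05. The all-gene counts of 1521 falls and 2413 rises became 1996 and 1939 with quantile normalization anew and 1034 and 2899 with arrays centred on their median. Without either of control replicates 1 and 2, none of the 118 passed limma's test (17 and 14 fell, 11 and 12 rose at an unadjusted p under 0.05). There were 3 falls and 4 rises without ribavirin replicate 1, and 6 of each without ribavirin replicate 2.

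The list of metalloproteinases and their inhibitors leaves out TIMP2, which got no test. Of its 28 genes 0 fell and 0 rose in limma's fit over all genes, with a median log2 change of -0.04. In 26 of the 28, both group means were within the background range. TIMP1, the nearest to passing, read 5.26 and 4.98 in control and 4.76 and 4.65 with ribavirin (limma adjusted p = 0.08). Each of these values was within the background range of its array. TIMP3 and TIMP4 had log2 changes of -0.05 and 0.03, both in the background range. MMP2 and MMP14, the enzymes that TIMP2 binds during MMP2 activation, were within the background range, with control values of 4.04 and 4.34 for MMP2 and of 3.33 and 3.44 for MMP14. The stromelysin MMP3 (-0.33), the elastase MMP12 (-0.27) and the membrane inhibitor RECK (-0.18) followed TIMP1 in order of p. At an unadjusted p under 0.05, 2 genes of the list fell and 0 rose without control replicate 1, and 2 fell and 2 rose without control replicate 2. With dim genes left out 1 of the list fell, TIMP1 (limma adjusted p = 0.0398, against 0.08 with all genes). It did not pass at 0.05 under any other alternative. That filter keeps genes at or above the median gene, so genes within the background range, such as TIMP1, remain.

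GIPC1, the broadly expressed relative of GIPC3, fell from 7.88 ± 0.03 to 7.25 ± 0.14 (SD, n = 2 each), by 0.63 on the log2 scale (SE 0.09, limma adjusted p = 0.0138). GIPC2, the other relative, had a change of 0.11 within the background range. Of 21 GIPC relatives and partners 3 fell (14.3%) and 3 rose, with a median of -0.05. The proteoglycan SDC4 rose by 0.93 (SE 0.08, limma adjusted p = 0.00406) and the TGF-beta coreceptor TGFBR3 by 0.70 (limma adjusted p = 0.00658). The semaphorin receptor PLXND1 fell by 0.57 within the background range. IGF1R (-0.35) and, within the background range, ADRB1 (0.58) also passed and are named after their values were seen. MYO6, the motor that GIPC proteins bind, had 0.61 and did not pass (limma adjusted p = 0.104), its control arrays being 5.55 and 6.13. Without either control array 0 of these 21 passed limma's test (4 fell without each, and 4 and 5 rose, at an unadjusted p under 0.05), and without ribavirin replicate 1 or 2 only 1 fell.

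The list of refilin relatives, filamins and actin filament genes also holds the intermediate filament gene VIM. Of its 22 genes 3 fell (13.6%) and 1, VIM, rose, with a median of -0.02. The filamin gene FLNC fell by 0.57 and was within the background range with ribavirin. FLNA, the filamin A gene, read 11.97 and 11.88 in control and 12.17 and 12.27 with ribavirin, a change of 0.29 that did not pass (limma adjusted p = 0.0729). The calponin CNN2 fell by 1.17 and the intermediate filament gene VIM rose by 1.38 (limma adjusted p = 0.00452 and 0.00202). FAM101A, the sole other refilin gene, had -0.02 within the background range. Without control replicate 1 or 2 none of the 22 passed limma's test (3 fell each time, and 4 and 1 rose, at an unadjusted p under 0.05), and without ribavirin replicate 1 only 1 fell.

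SBK2 and SBK3, the relatives of SBK1, had log2 changes of -0.22 and -0.11, both within the background range, and neither passed. Of 24 carbonic anhydrases and genes of the SLC4 transporter family 2 fell (8.33%) and 1 rose, with a median of -0.07 and 21 in the background range in both groups. The transporter SLC4A11 fell by 0.63 (limma adjusted p = 0.00883), the mitochondrial CA5B fell by 0.43 within the background range, and the transporter SLC4A7 rose by 0.50. CA11, next in p, had -0.27 and did not pass. Of 21 measured genes that share the SMIM name, which marks size and membrane position and not descent, 2 fell (9.52%) and 2 rose, with a median of 0.03. SMIM14 fell by 0.74 and SMIM6, within the background range, by 0.38, while SMIM20, whose control mean was within that range, rose by 0.54 and SMIM15 by 0.63. Without control replicate 1 or 2 none of these passed limma's test: at an unadjusted p under 0.05, 4 and 3 anhydrase and transporter genes fell, as did 4 and 2 SMIM genes. Without ribavirin replicate 1 the fits gave 0 falls of anhydrase and transporter genes and 1 of SMIM genes, with 0 rises in either, and without ribavirin replicate 2 each had 1 fall.

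**Figure D4:**
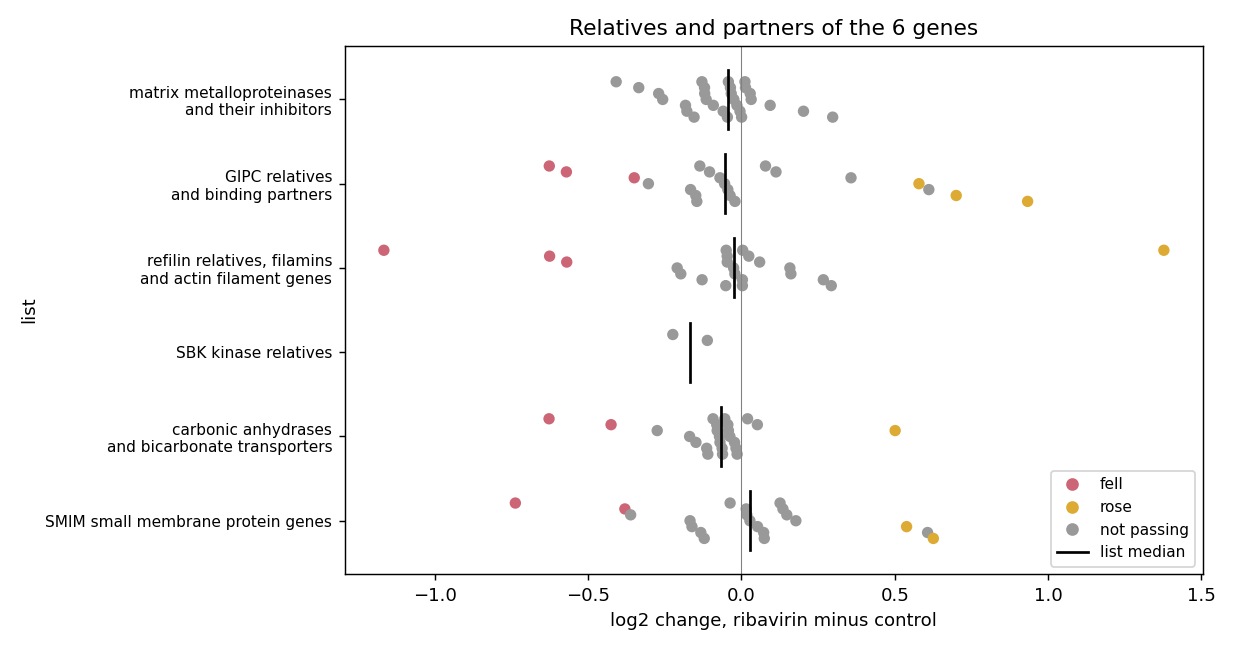
Log2 change (ribavirin minus control, x axis) of each relative or partner, by list (y axis), coloured by limma call, with a black line at each list's median. The widest changes are in the list with filamins and actin filament genes, CNN2 at -1.17 and the intermediate filament gene VIM at 1.38. No point reaches the -1.96 of CA6.

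Genes beside the 6 on the chromosome were compared next, with the order taken from RefSeq (GRCh38.p14, used for order only) and the 5 nearest measured genes on each side, or 4 where the chromosome ended. Of 54 such genes 11 fell (20.4%, against 5.88% of all genes) and 1 rose, with a median of -0.08. The neighbours were brighter than the array as a whole: 38 of 54 had a mean at or above the median gene. With dim genes left out 13 of these 38 fell (34.2%), against 14.0% of the 12924 genes that remained. With arrays centred on their median 7 of 54 fell, against 4.0% of all genes. Without control replicate 1 or 2 none passed limma's test (14 and 15 fell and 3 and 2 rose at an unadjusted p under 0.05), and without ribavirin replicate 1 and 2 the falls were 2 and 5.

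SMIM24 and GIPC3 lie near each other on chromosome 19, and the 5 measured genes between them did not pass: DOHH had a log2 change of -0.01, FZR1 -0.03, C19orf71 -0.03, MFSD12 0.21 and HMG20B -0.25. Beyond GIPC3, the thromboxane receptor TBXA2R fell by 0.44 within the background range, the lipid kinase PIP5K1C by 0.41 and the tight junction gene TJP3 by 0.82 (limma adjusted p = 0.00658). Beyond SMIM24, NFIC, a transcription factor, fell by 0.39 and the G-protein subunit GNA15 by 0.35. The falls of SMIM24 and GIPC3 thus stood on both sides of a run of genes with smaller changes. Because SMIM24 and GIPC3 were chosen among the largest falls, smaller changes beside them are nearly fixed by that choice.

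CEP295NL, which overlaps TIMP2 on chromosome 17, read 5.22 and 5.27 in control and 4.41 and 4.36 with ribavirin. It fell by 0.87 (SE 0.07, limma adjusted p = 0.00405), with both group means within the background range. As the loci overlap, a signal shared by probes of both genes was not tested. On the same side C1QTNF1 fell by 0.51 within the background range. On the other side the nearest gene, the deubiquitinase USP36, had -0.01, and CYTH1, an exchange factor of small GTPases, rose by 0.32 (limma adjusted p = 0.049).

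Beside FAM101B, near the end of chromosome 17, the nearest genes C17orf97 and VPS53 had 0.00 and -0.18 and did not pass. SCGB1C2, also counted there, was read from a cluster named for another chromosome, so its value is uncertain. It had -0.18 within the background range and did not pass. FAM57A fell by 0.57, to a mean within the background range, and GEMIN4, a splicing complex assembly factor, by 0.39. Beside SBK1, on chromosome 16, XPO6 had 0.18 and NPIPB6 -0.01. NPIPB6 belongs to a family of near-identical copies, so its value is uncertain. CLN3, a lysosomal membrane protein, fell by 0.93 from 10.65 ± 0.07 (SD, n = 2; limma adjusted p = 0.0039) and NUPR1 by 0.48 within the background range. None of 10 genes beside CA6, on chromosome 1, passed limma's test. The nearest were HMGN2P17, annotated as a pseudogene, with 0.27, and SLC2A7, within the background range in both groups, with -0.09. Whether probes of HMGN2P17 also read related sequences was not tested.

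**Figure D5:**
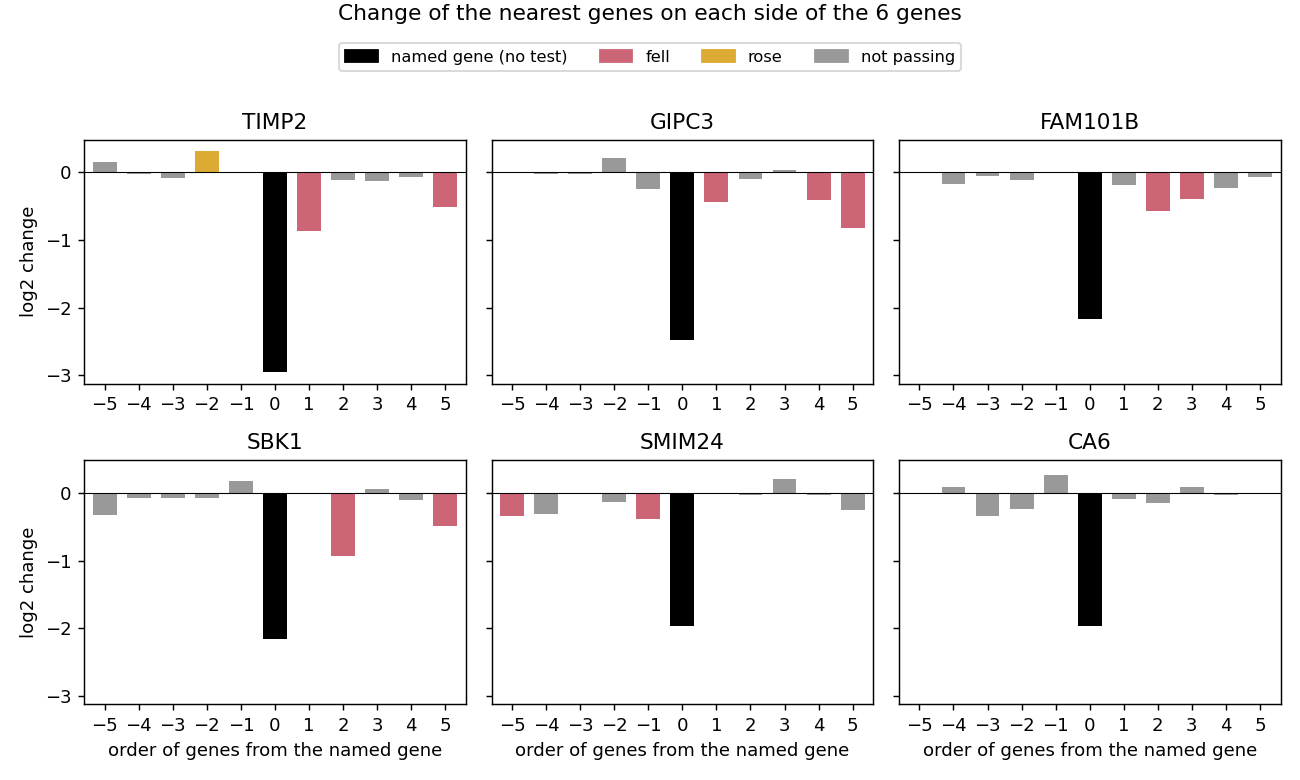
Log2 change (ribavirin minus control, y axis) of up to 5 measured genes on each side of the 6 genes (x axis, order along the chromosome, the named gene at 0 in black), coloured by limma call. No neighbour is as low as its named gene, which the choice of the 6 among the lowest changes nearly fixes. The lowest neighbour, CLN3 beside SBK1, is at -0.93.

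Several of the 6 genes are known mainly from tissues other than T cells, so markers of the labelled cell type and of others were read on the same arrays. Of 12 T-cell markers 7 fell (58.3%) and 2 rose, where 5.88% of all genes fell and 9.34% rose. Their summed log2 levels were 89.4 and 90.0 in control and 85.1 and 85.2 with ribavirin. CD3D was at 11.84 ± 0.04 and CD3G at 11.45 ± 0.08 in control (SD, n = 2), so the line carried these T-cell transcripts. Another 3 of the 12 (CD2, CD28 and TRAT1) were within the background range in both groups. Of 10 epithelial markers 6 fell (60.0%) and 0 rose, with sums of 64.8 and 65.1 in control and 58.8 and 59.1 with ribavirin and 4 in the background range in both groups. Of 14 salivary gland markers measured 13 were in the background range in both groups, 0 fell and ZG16B rose by 0.35, with sums of 49.5 to 50.4 in control and 48.7 in both ribavirin arrays. Of 12 fibroblast markers 9 were in that range, COL1A1 fell by 0.37 within it and ACTA2 rose by 0.47, with sums of 58.9 to 59.2 and 57.7 to 58.2. Of 10 myeloid markers CD68 rose by 0.64 from a control mean within the background range and 0 fell, with sums of 39.0 to 39.8 and 38.9 to 39.2. Of 8 B-cell markers CD79A and CD79B fell by 1.40 and 0.64 and 0 rose, with sums of 43.3 to 43.8 and 40.9 to 41.1. All 4 arrays were of 1 cell line, so a marker names the cells it is known from and does not show such cells in the culture. Any link between the falls of these markers and those of the 6 genes was not tested. Without control replicate 1 or 2 no marker of any of these lists passed limma's test, though 8 and 7 T-cell and 7 and 6 epithelial markers fell at an unadjusted p under 0.05. Without ribavirin replicate 1, 4 T-cell, 5 epithelial and 1 B-cell marker fell and none of the 6 lists had a rise. Without ribavirin replicate 2, 5 T-cell, 5 epithelial and 2 B-cell markers fell and 2 T-cell markers rose.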

How the data were processed

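Total RNA of 2 control and 2 ribavirin samples was amplified from 100 ng and labelled with biotin by a fixed-tissue kit, per the labels' protocols. The authors deposited log2 probe set summaries made with SST-RMA as the table's name says. Affymetrix Expression Console and RMA are named per the submitters' processing notes, while versions and the background step stay not given in the sources used here. A second deposited table held the same log2 values (largest difference 0 over 70523 probe sets).

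Of 67528 transcript clusters 33444 carried 1 symbol, 50 several and 34034 none. For the 5724 genes with several clusters, that of highest mean over the 4 arrays was kept. Of 25847 symbols 22703 were current in RefSeq and 1434 were matched through synonyms. Groups came from the sample titles. limma 3.58.1 (R 4.3.3, lmFit and eBayes, 2 residual degrees of freedom) was two-sided with Benjamini-Hochberg adjustment over all genes, and its steps were tested on simulated data. The 6 genes got no test. Named were the 6 genes and their clusters, up to 4 genes with the smallest p in each list, direct relatives, neighbours that passed or lay nearest, and the 3 nearest profiles, of which some genes are not reported here. Members and lists were chosen with earlier results of these data known. Alternatives were other normalizations, mean clusters, a raised floor, trend, robust and filtered fits, the array number as a block, other thresholds and each array left out.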

Additional observations from a re-analysis of the deposited data

How the results depend on the processing

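The falls of all 6 genes kept their direction in every setting run for them, which is no support for them. With both ribavirin arrays below both control arrays, leaving 1 array out could not reverse the sign. With each array left out in turn TIMP2 ranged from -3.13 to -2.79, GIPC3 from -2.67 to -2.30, FAM101B from -2.33 to -2.01, SBK1 from -2.38 to -1.93, SMIM24 from -2.32 to -1.61 and CA6 from -2.10 to -1.83. Values raised to each array's highest background set gave -2.13 for TIMP2, -2.19 for GIPC3 and -1.52 for SMIM24, which that setting compresses by construction. With a gene's clusters averaged SBK1 was at -1.67. Raised values left 0 limma calls among all genes, the 118 relatives and the 54 neighbours, in each direction. Most genes then share 1 value per array, and at an unadjusted p under 0.05 there were 712 falls and 1684 rises over all genes, 5 and 6 among relatives and 2 and 0 among neighbours. At an adjusted p under 0.01 there were 420 falls and 894 rises over all genes, 5 and 3 among relatives and 3 and 0 among neighbours. At 0.1 all-gene falls were 2449, falls of metalloproteinase genes and inhibitors 2 (against 0), and rises of relatives 11, which they also were with dim genes left out. Neighbour falls were 7 with arrays centred on their median. The 1 neighbour rise was lost (0) with quantile normalization, the robust fit and the replicate block. Leaving out single arrays gave 4 to 571 falls and 22 to 1430 rises over all genes, 0 to 6 of either among relatives, and 0 to 5 falls and 0 rises among neighbours. Same-numbered arrays showed no pairing (correlation of deviations 0.051), and with the array number as a replicate block 1247 genes fell and 2093 rose, among them 9 and 7 relatives and 8 and 0 neighbours. Signal over background limits TIMP2 and SMIM24 most, since both ended in the background range.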
